A study of Mus musculus with 17 samples.

Results

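This account covers the chromatin around 10 genes of Toll-like receptor (TLR) and lipopolysaccharide (LPS) sensing in mouse bone marrow-derived macrophages (BMDMs): Tlr1, Tlr2, Tlr6, Tlr4, Tlr5, Tlr3, Tlr9, Cd14, Ly96 and Myd88. The assay was ATAC-seq, which uses the Tn5 transposase to tag open DNA with adapters. Peaks of the 17 deposited peak lists were merged into consensus sites when at least 2 lists carried them among their 24389 most significant peaks, and a site was kept when it lay within 20 kb of the body of a member gene in the GENCODE annotation of GRCm38 (mm10). This rule, which used position and no measured difference, gave 33 elements of 34158 consensus sites. TLRs are pattern recognition receptors of the innate immune system. Those at the plasma membrane bind microbial lipids and proteins, and those in endosomes bind nucleic acids. LPS is delivered by CD14 to the complex of TLR4 with MD-2, the product of Ly96, and the receptors then recruit adaptors such as MyD88 to activate NF-kB and AP-1. Macrophages express much of this machinery and alter it when they are activated.

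BMDMs were grown for 7 days in L929-conditioned medium from the bone marrow of male C57Bl6/J mice aged 6 to 12 weeks. Nur77-KO mice (KO) carry a whole-body deletion of Nr4a1, which encodes the nuclear receptor Nur77. The deletion was made with a Cre driven by the CMV promoter and a floxed allele, and KO mice without Cre were then bred and compared with wild-type (WT) littermates. The labels give the genotypes as "wt" and "cre". Cells were left without LPS (0 h) or received 100 ng/ml LPS for 1 or 18 h. Each of the 6 groups had 3 samples, except WT at 1 h, which had 2, labelled replicate 1-2 and replicate 3. Nothing in the labels says that replicates came from separate mice or cultures, so p-values measure only the spread between these samples. The comparisons ask how LPS altered these loci and whether loss of Nur77 altered them or their LPS response.

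Depth differed between lists, from 0.382 to 9.75 background reads per kb as recovered from the deposited columns. It was 5.11 to 9.75 in WT at 0 h but 0.382 and 1.61 in WT at 1 h, and 1.1 to 1.76 in KO at 18 h. For that reason peaks were compared by their rank inside their own list. KO 18 h replicate 1 stood apart by narrow peaks, with a median width of 135 bp against 338 to 661 bp in the other 16 lists. Between 5 and 7 of 7 macrophage promoters (Adgre1, Csf1r, Itgam, Cd68, Spi1, Mertk and Fcgr1) were ranked in each list. No T and NK cell, neutrophil or erythroid marker promoter was ranked in any list, while Ms4a1, a B cell marker, was ranked in 10 lists, Zbtb46 of dendritic cells in 13, and Col1a1 of fibroblasts in 14. The part of such cells in the results was not tested, and in these bulk samples fewer cells of a type and less open chromatin per cell cannot be told apart.

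Elements are named by gene and by the distance of their summit from the start of the gene, counted positive downstream. The sequences of 8 elements that the results turn on are given as the 201 bases around the summit, on the plus strand of GRCm38, with coordinates of those bases. Capitals mark matches on either strand to AP-1 (TGANTCA), NBRE (AAAGGTCA), the monomer site of Nur77, C/EBP (TTGCNNAA) or PU.1 (GAGGAAGT). The first 3 rose 1 h after LPS, and the Tlr9 element holds both AP-1 and NBRE letters.
Tlr2 promoter at chr3:83841324-83841524: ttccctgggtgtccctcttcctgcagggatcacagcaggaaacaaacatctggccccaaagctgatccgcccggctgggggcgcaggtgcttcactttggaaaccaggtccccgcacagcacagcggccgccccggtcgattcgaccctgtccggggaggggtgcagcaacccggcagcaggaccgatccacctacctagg
Tlr2 −3.5 kb at chr3:83845195-83845395: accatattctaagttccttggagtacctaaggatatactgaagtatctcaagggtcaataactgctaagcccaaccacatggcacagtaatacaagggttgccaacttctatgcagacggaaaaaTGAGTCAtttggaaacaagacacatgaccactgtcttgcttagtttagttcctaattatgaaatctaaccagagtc
Tlr9 +7.7 kb at chr9:106230203-106230403: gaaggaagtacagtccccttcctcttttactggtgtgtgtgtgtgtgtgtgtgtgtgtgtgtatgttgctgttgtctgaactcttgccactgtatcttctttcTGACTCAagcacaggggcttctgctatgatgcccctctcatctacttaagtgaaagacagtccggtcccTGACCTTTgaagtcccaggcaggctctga
The next pair rose at 18 h, and the Tlr6 element holds the most motif matches of the 33.
Tlr6 promoter at chr5:64961153-64961353: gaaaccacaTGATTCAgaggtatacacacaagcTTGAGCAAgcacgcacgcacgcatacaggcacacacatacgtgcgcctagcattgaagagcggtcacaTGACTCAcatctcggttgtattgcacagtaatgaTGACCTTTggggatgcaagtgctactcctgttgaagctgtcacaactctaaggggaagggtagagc
Tlr1 +10.5 kb at chr5:64922979-64923179: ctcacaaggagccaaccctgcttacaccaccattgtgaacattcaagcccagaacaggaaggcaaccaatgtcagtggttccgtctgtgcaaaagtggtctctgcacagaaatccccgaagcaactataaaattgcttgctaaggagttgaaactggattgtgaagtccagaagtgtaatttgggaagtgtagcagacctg
The Tlr4 promoter, with PU.1 letters downstream of its summit, fell at 1 h.
Tlr4 promoter at chr4:66827505-66827705: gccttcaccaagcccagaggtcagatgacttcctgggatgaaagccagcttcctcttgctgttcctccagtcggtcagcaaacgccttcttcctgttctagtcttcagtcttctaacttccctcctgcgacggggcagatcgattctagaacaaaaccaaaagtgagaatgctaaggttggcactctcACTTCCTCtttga
The last pair are the Ly96 element that rose at 1 h and fell at 18 h, and the Myd88 promoter, and neither holds a match to the motifs searched.
Ly96 +14.6 kb at chr1:16702964-16703164: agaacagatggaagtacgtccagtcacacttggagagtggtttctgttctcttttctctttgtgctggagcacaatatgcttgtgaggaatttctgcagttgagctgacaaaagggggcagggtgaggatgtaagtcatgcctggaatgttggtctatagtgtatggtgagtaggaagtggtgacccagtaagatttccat
Myd88 promoter at chr9:119341165-119341365: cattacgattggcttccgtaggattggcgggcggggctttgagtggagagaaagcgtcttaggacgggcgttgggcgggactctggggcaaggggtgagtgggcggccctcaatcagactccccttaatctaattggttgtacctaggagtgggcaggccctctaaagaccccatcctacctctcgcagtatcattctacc

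AP-1 letters lay within 100 bp of the summit in 4 of 33 elements (12.1%), against 19.8% of all consensus sites. C/EBP letters were found in 6 elements (18.2% against 11.2% of all sites), NBRE letters in 2 (6.06% against 1.04%), CTCF in 2 (6.06% against 2.79%) and PU.1 letters in 1 (3.03% against 7.73%). The NF-kB motif and the ISRE (GAAANNGAAA) were not found in these windows in any element, and 4.83% and 3.66% of all sites hold them. The NBRE letters lay in Tlr9 +7.7 kb, 76 bp from the summit, and in the Tlr6 promoter, 39 bp from it. Both of these elements also held AP-1 letters, 6 bp from the summit in Tlr9 +7.7 kb and 4 bp from it in the Tlr6 promoter. In both, the plus strand carries the NBRE as its reverse complement. Of the 10 elements called higher at 1 h, 2 held AP-1 letters, and among all sites called higher at 1 h the share was 37.7%. A match is only a run of letters, and no binding was measured.

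The 33 elements fell into 8 at the start of a member gene, 17 distal elements and 8 at the start of a neighbouring gene. Of the 8 at member starts, 7 had their summit within 1 kb of a start (Tlr2, Tlr4, Tlr3, Tlr9, Cd14, Ly96 and Myd88), while the Tlr6 element, called the Tlr6 promoter here for short, spanned the start with a summit 1156 bp upstream. Tlr1 and Tlr5 had no such element. A rank score was used for every test, log2 of 24390 divided by the rank, so that 1 unit is a change of the rank by a factor of 2, and a peak beyond rank 24389 or absent scores 0. At 1 h of LPS 13 of 33 elements were called (limma, adjusted p under 0.05 over all 34158 sites), 10 higher and 3 lower. Over all sites 28.0% were called at 1 h, 13.7% higher and 14.4% lower. At 18 h 10 elements were called, 4 higher and 6 lower, against 23.6% of all sites, 10.7% higher and 12.9% lower. At each time 2 of these calls, Cd14 +13.2 kb (higher) and Tlr9 +3.7 kb (lower), are descriptions only, since Cd14 +13.2 kb was ranked in 1 of the 6 lists at 0 h and Tlr9 +3.7 kb in none of the 11 lists of 1 and 18 h, so that each entered the sites through the lists in which it is high. The exact permutation test, adjusted over all sites, did not call 5 of the named elements that limma called, which are given with their exact p where they are described. The median difference over the 33 elements was −0.05 at 1 h and 0.02 at 18 h, beside −0.02 and 0.00 over all sites. With depth of the list as a covariate 7 of the 13 calls at 1 h were made, all of them among the 13, and all 10 calls at 18 h.

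**Figure D1:**
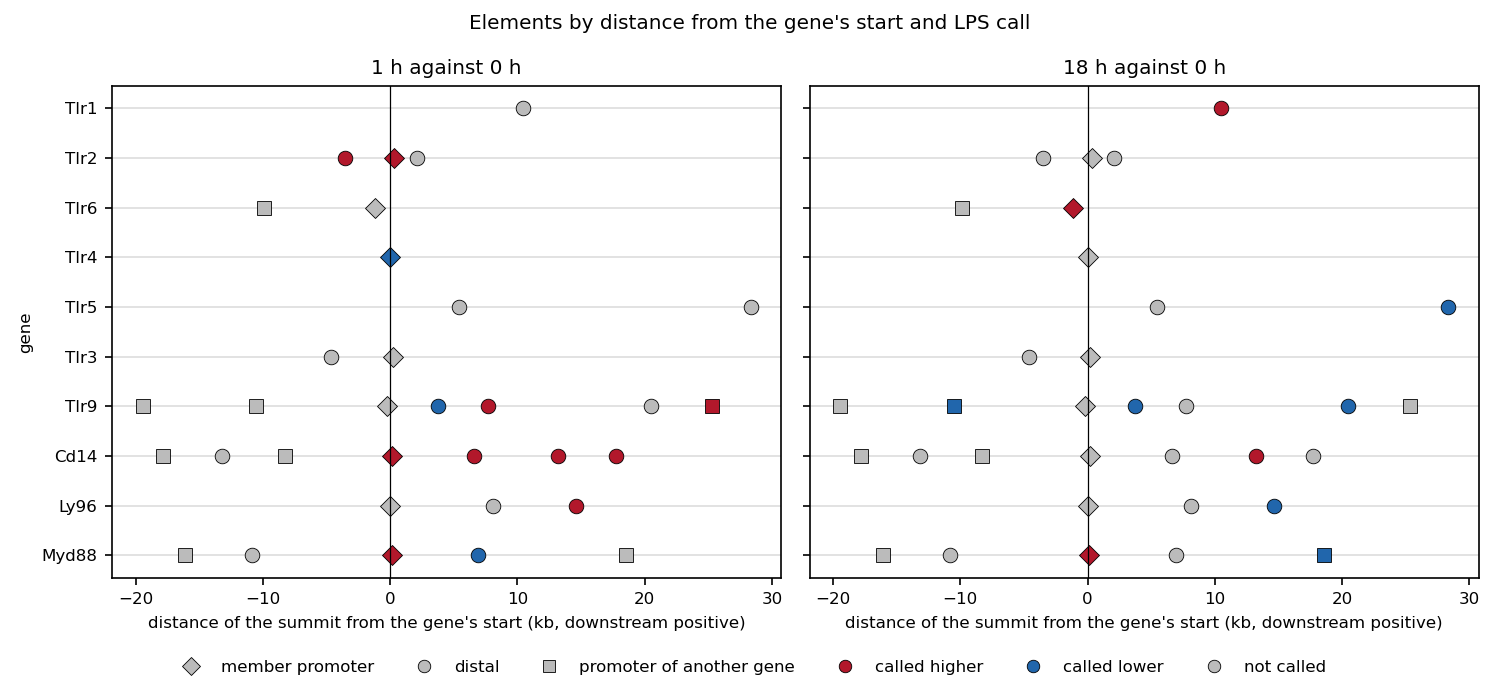
Summits of the 33 elements by distance from the start of the gene (x axis, kb, downstream positive) in rows for the 10 genes, for 1 h (left) and 18 h (right) of LPS against 0 h. Diamonds are elements at member starts, circles distal elements and squares promoters of other genes. Red marks elements called higher and blue those called lower. At 1 h red symbols are at the Cd14 promoter and 3 downstream Cd14 elements, and at 18 h 1 of these, Cd14 +13.2 kb, is red.

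**Figure D2:**
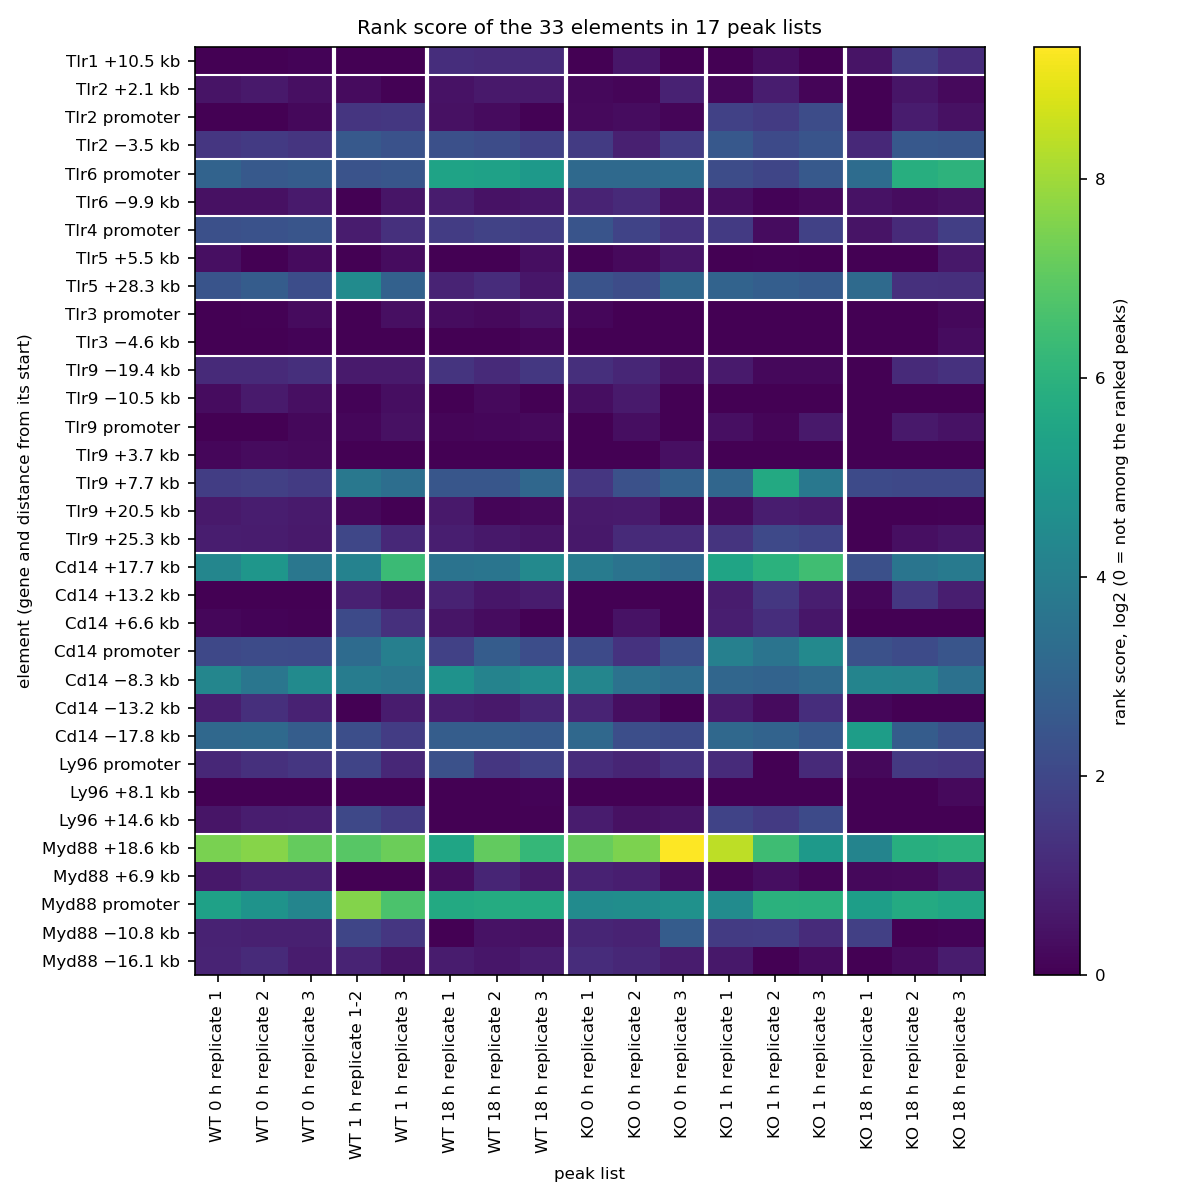
Rank score (colour, log2 units, 0 for peaks not among the 24389 ranked) of the 33 elements (rows) in the 17 peak lists (columns), with white lines between groups and between genes. The Myd88 promoter and Myd88 +18.6 kb are bright in every list, and the Tlr6 promoter is brightest at 18 h.

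Tlr2, which pairs with TLR1 or TLR6 to bind bacterial lipopeptides, gained accessibility at its promoter and at an upstream element 1 h after LPS. The Tlr2 promoter (chr3:83840867-83842570, intron of Tlr2, summit 343 bp from the start) ranked 25854, 26568 and 21378 in the WT lists at 0 h, 9051 and 8575 at 1 h, and 18055, 20384 and 23286 at 18 h. In KO it ranked 20888, 19553 and 22459 at 0 h, 6912, 8019 and 5372 at 1 h, and 25988, 15045 and 18453 at 18 h. Every 1 h list, of either genotype, ranked it above every 0 h list, and at 18 h the ranks overlapped those at 0 h. The rank score rose by 1.53 at 1 h (95% interval 1.19 to 1.86, limma adjusted p = 3.79e-06, exact permutation p = 0.005, the smallest this design allows), by 1.41 in WT and 1.65 in KO. The 18 h difference was 0.17 (−0.15 to 0.48, adjusted p = 0.457).

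Tlr2 −3.5 kb (chr3:83844630-83845883, intergenic) ranked 8734, 8108 and 8980 in WT at 0 h and 4032 and 4774 at 1 h. The KO lists ranked it at 7954, 13775 and 7689 at 0 h, and 4146, 5738 and 4568 at 1 h. All 5 lists at 1 h stood above all 6 at 0 h. The rise was 0.98 (0.41 to 1.54, limma adjusted p = 0.0119), with 0.97 in WT and 0.98 in KO, but the call was lost with depth as a covariate, at 1.06, and with a peak required to cover 50% of the element, at 0.98. At 18 h the ranks were 5001, 5470 and 7008 in WT and 11580, 4152 and 4309 in KO, and the difference of 0.63 (0.09 to 1.16) did not pass (limma adjusted p = 0.0837). An intronic element, Tlr2 +2.1 kb, ranked between 13271 and 25388 in all lists and was called in neither comparison.

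Tlr6 and Tlr1 are neighbours, and each had an element called higher at 18 h and not at 1 h, although 18 h was not tested against 1 h. The Tlr6 promoter element (chr5:64958691-64962115) ranked 3079, 3996 and 3707 in WT at 0 h, 4684 and 4280 at 1 h, and 574, 598 and 757 at 18 h. Its ranks in KO were 2707, 2653 and 2563 at 0 h, 5389, 6243 and 3981 at 1 h, and 2501, 420 and 370 at 18 h. All 18 h lists stood above all 0 h lists, with KO 18 h replicate 1, the list of narrow peaks, far below the other 5. The rise of this upstream summit was 2.17 (1.38 to 2.96, limma adjusted p = 0.000525), 2.49 in WT and 1.86 in KO, and without single lists it was between 1.93 and 2.61. Peaks with their summit within 1 kb of the Tlr6 start were deposited in 8 lists, at ranks from 4280 to 49361, and at 18 h only in WT replicate 2 (28426) and KO replicates 2 (19206) and 3 (25576). At 1 h the difference of the element was −0.64 (−1.47 to 0.19, limma adjusted p = 0.249, exact permutation p = 0.01), and it was called lower by the exact test, with linear ranks and without KO 18 h replicate 1. The element is 3425 bp wide, and when a peak had to cover 50% of an element to count, a rule that depends on how wide the peaks of a list are, the 18 h difference was −0.18.

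Tlr1 +10.5 kb (chr5:64922372-64924413, intergenic, beyond the end of Tlr1) ranked 24990, 25000 and 22864 in WT at 0 h and 10591, 11107 and 10886 at 18 h. Among KO lists it ranked 26029, 16312 and 24922 at 0 h and 17138, 7820 and 10815 at 18 h. The WT lists separated by time, while KO 0 h replicate 2 ranked it above KO 18 h replicate 1. The 18 h rise was 1.03 (0.67 to 1.38, limma adjusted p = 0.000364), 1.14 in WT and 0.91 in KO, and it was not called by the exact test (exact permutation p = 0.01) or, at 0.06, with the best 10000 peaks. At 1 h it was listed in 4 of 5 lists, at ranks from 18989 to 38093, with a difference of −0.05 (−0.43 to 0.32). Peaks at the Tlr1 start itself were deposited in 11 lists, at ranks from 24162 to 54808, so that a single list held one among its ranked peaks.

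Tlr4, the signalling receptor for LPS, lost rank at its promoter at 1 h. The Tlr4 promoter (chr4:66827228-66829575, exon of Tlr4, summit 21 bp downstream of the start) ranked 4984, 4831 and 4434 in WT at 0 h, 14822 and 10002 at 1 h, and 7649, 6803 and 7392 at 18 h. In KO it ranked 4514, 6618 and 9369 at 0 h, 8217, 19729 and 6945 at 1 h, and 17362, 11223 and 7286 at 18 h. The WT lists separated at both times, and the KO lists overlapped. At 1 h it fell by 1.01 (interval −1.64 to −0.39, limma adjusted p = 0.017), and the difference was −1.36 in WT and −0.67 in KO. The 18 h difference was −0.70 (−1.29 to −0.11, limma adjusted p = 0.0808), and it was called in 4 of the alternatives. The 1 h call was lost in the exact test (exact permutation p = 0.02), with depth as a covariate, where the difference was −0.46, with the coverage rule (−0.82), and without WT 1 h replicate 1-2, the shallowest list, in which the peak rested on 6 reads. In that list called rises also rested on few reads, such as 8 at the Tlr2 promoter and 11 at Ly96 +14.6 kb. No other element lay in the Tlr4 window, although 43 deposited intervals lay outside it over the 17 lists, up to 8 in a list.

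Tlr5, the receptor for bacterial flagellin, had no promoter element, and peaks at its start were deposited in 5 lists, at ranks from 33988 to 50984. Tlr5 +28.3 kb (chr1:182982606-182983878, beyond the gene's end) ranked 4578, 3701 and 5344 in WT at 0 h, 1081 and 3288 at 1 h, and 12904, 10748 and 16682 at 18 h. The KO lists ranked it at 4646, 5430 and 2839 at 0 h, 3104, 3578 and 3920 at 1 h, and 2600, 10065 and 10110 at 18 h. Of the 6 lists at 18 h, 5 ranked it below every 0 h list and KO 18 h replicate 1 ranked it above them all. At 18 h it fell by 1.09 (interval −1.83 to −0.36, limma adjusted p = 0.0313), with −1.56 in WT and −0.63 in KO. This call was lost in the exact test (exact permutation p = 0.025), with the best 10000 peaks (−0.89), with the coverage rule (−1.47) and on leaving out any of 7 lists (WT 0 h replicates 1 and 2, WT 18 h replicates 1 and 3, KO 0 h replicate 3, KO 18 h replicates 2 and 3), with differences from −1.42 to −0.93 over all 17 omissions. At 1 h the difference was 0.75 (−0.04 to 1.53, limma adjusted p = 0.147). The intronic Tlr5 +5.5 kb was ranked in 9 lists and called in none of the comparisons.

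**Figure D3:**
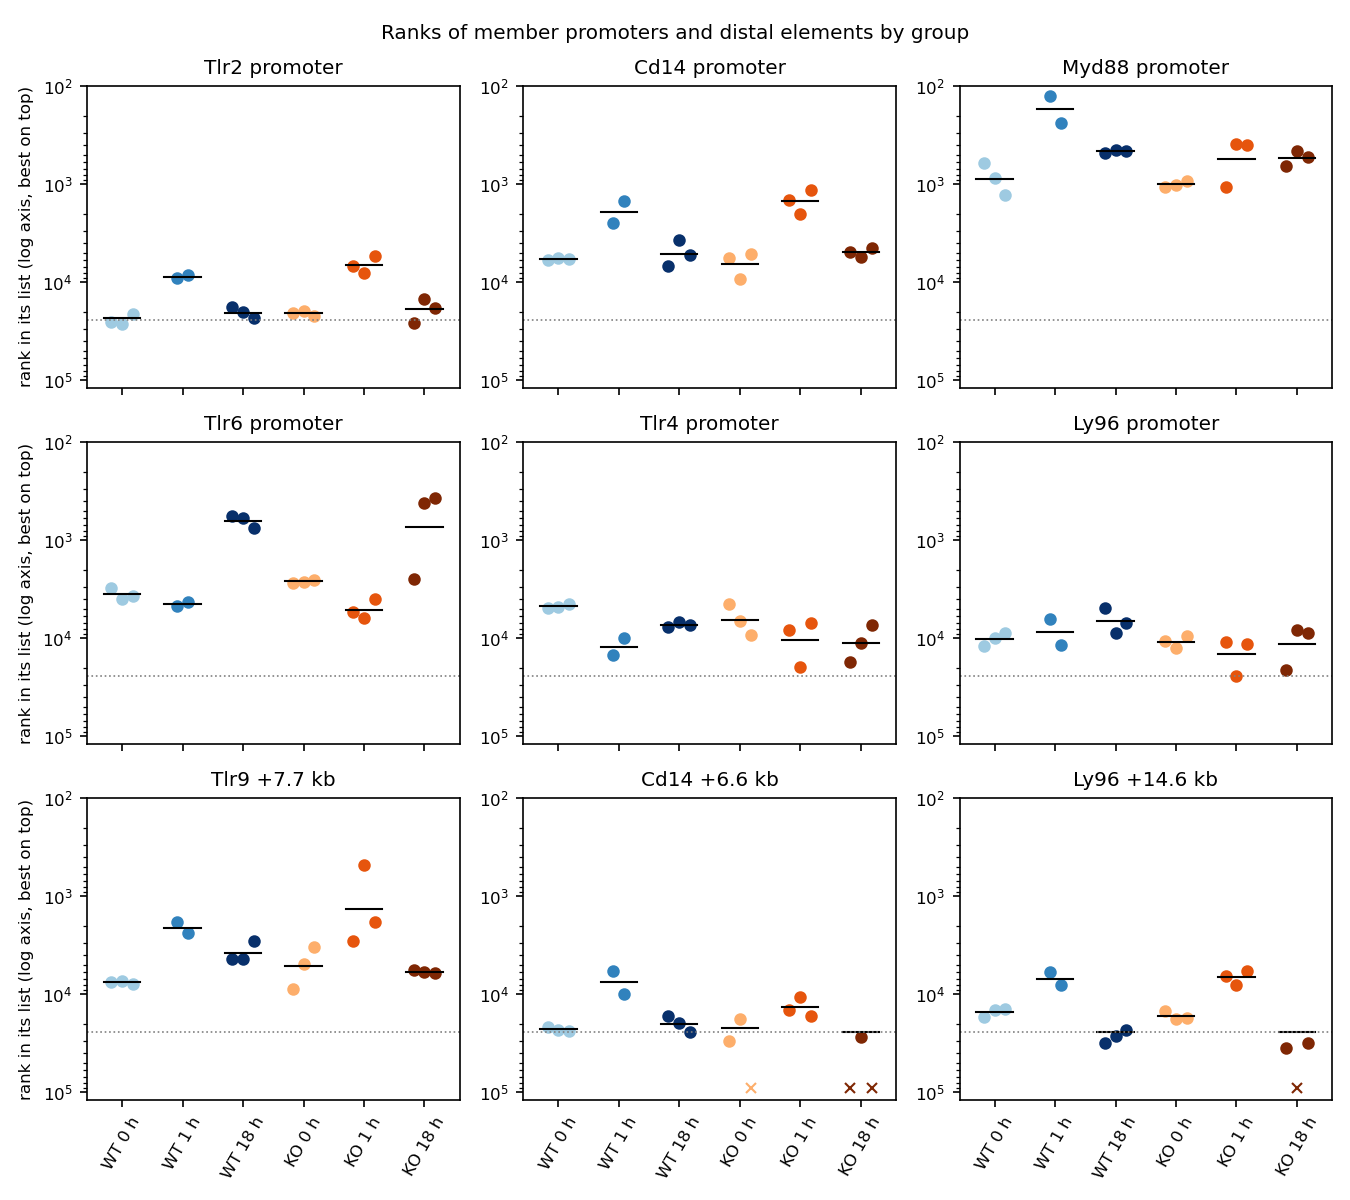
Rank inside its list (y axis, log scale, best at the top) of 6 elements at member starts and 3 distal elements in the 6 groups. Points are lists, bars the mean rank score turned back to a rank, the dotted line rank 24389 and crosses lists without a peak. The 1 h points of the Tlr2 and Cd14 promoters, Cd14 +6.6 kb and Ly96 +14.6 kb lie above the 0 h points, and the Tlr6 promoter stands highest at 18 h.

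The promoters of the endosomal receptors were weakly accessible and were not called. Tlr3, which binds double-stranded RNA and signals through TRIF, had a promoter element (chr8:45409835-45410883) that was among the ranked peaks of 8 lists, with ranks from 17656 to 35197 where it was deposited. Its differences were 0.01 (−0.16 to 0.17) at 1 h and 0.12 (−0.04 to 0.27) at 18 h. Tlr3 −4.6 kb was ranked in 4 lists. Both sat near the end of the ranking, where the score is at or close to 0 and a fall could not be seen.

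Tlr9, the receptor for unmethylated CpG DNA, had a promoter element (chr9:106221566-106223666, summit 234 bp upstream) ranked in 12 lists, at ranks from 15713 to 26685 where deposited. Its differences were 0.24 (−0.02 to 0.50) at 1 h and 0.18 (−0.06 to 0.42) at 18 h. A 1 h rise was called at Tlr9 +7.7 kb (chr9:106229320-106234622, intergenic, beyond the end of Tlr9). It ranked 7533, 7251 and 7946 in WT at 0 h, 1826 and 2388 at 1 h, and 4358, 4325 and 2851 at 18 h. Its ranks in KO were 8782, 4912 and 3263 at 0 h, 2855, 481 and 1814 at 1 h, and 5657, 5939 and 6047 at 18 h. Each 1 h list stood above each 0 h list, though KO 1 h replicate 1 and KO 0 h replicate 3 were close. The rise was 1.90 (1.10 to 2.70, limma adjusted p = 0.00143, exact permutation p = 0.005), 1.86 in WT and 1.94 in KO. The 18 h difference was 0.41 (−0.34 to 1.17, limma adjusted p = 0.446). The 1 h rise was still called with depth as a covariate, at 1.00, and was −0.28 when a peak had to cover 50% of this 5303 bp element.

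Downstream of it, Tlr9 +20.5 kb (chr9:106242377-106243827, intron of Alas1) fell by 0.43 at 18 h (interval −0.69 to −0.17, limma adjusted p = 0.0191). It ranked 15533, 14389 and 15430 in WT at 0 h against 15609, 22106 and 21275 at 18 h. Among KO lists it ranked 15604, 15401 and 21071 at 0 h against 29393, none and 23575 at 18 h, where none marks a list without the peak. The call was lost with the coverage rule, at −0.29, and without WT 18 h replicate 2 or 3. Tlr9 +3.7 kb (chr9:106225795-106226814, exon of Tlr9) was among the ranked peaks of all 6 lists at 0 h, at 18482 to 24296, and of no other list, a difference of −0.19 at both times. It entered the sites through its 0 h lists alone, which fixed the direction, so its values are a description.

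Cd14, whose product carries LPS to TLR4, had 7 elements in its window. Of these 4 were called higher at 1 h, beside 13.7% of all sites, and 1 of them, Cd14 +13.2 kb, is a description only. The Cd14 promoter element (36722174 to 36728033 on chromosome 18) is 5860 bp wide and covers the whole gene. It ranked 5995, 5621 and 5776 in WT at 0 h, 2524 and 1482 at 1 h, and 6917, 3754 and 5345 at 18 h. In KO it ranked 5640, 9399 and 5164 at 0 h, 1464, 2014 and 1162 at 1 h, and 4897, 5549 and 4485 at 18 h. All 1 h lists stood above all 0 h lists, and at 18 h the ranks overlapped those at 0 h. The rise was 1.84 at 1 h (1.33 to 2.36, limma adjusted p = 3.71e-05, exact permutation p = 0.005), 1.58 in WT and 2.11 in KO, and it was 0.28 (−0.21 to 0.76, limma adjusted p = 0.423) at 18 h. It was called with depth as a covariate, at 2.03, while the coverage rule turned it to −0.37.

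Downstream, 3 elements were also higher at 1 h. Cd14 +6.6 kb (36719540 to 36720732) ranked 21651, 22920 and 23635 in WT at 0 h and 5729 and 9962 at 1 h. The KO lists ranked it at 29717 and 17831 at 0 h, with no peak in replicate 3, and 14341, 10578 and 16579 at 1 h. Lists at 1 h stood above those at 0 h in both genotypes, and the rise was 1.14 (0.79 to 1.49, limma adjusted p = 9.61e-05), 1.59 in WT and 0.69 in KO. The 1 h call was lost with the best 10000 peaks, at 0.20, and with the coverage rule, at 0.60. The 18 h difference was 0.02 (−0.31 to 0.35).

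Cd14 +13.2 kb (36713020 to 36714296) was the one Cd14 element called at both times. It ranked 27369, 34565 and 29636 in WT at 0 h, 13400 and 17351 at 1 h, and 13091, 16685 and 14915 at 18 h. Its ranks in KO were 24041 and 25575 at 0 h, with none in replicate 3, 14726, 8497 and 14063 at 1 h, and 21540, 8622 and 14165 at 18 h. It was thus among the ranked peaks of 1 list at 0 h and of every list after LPS, and it met the requirement of 2 lists only through the latter, of which either time alone would have been enough. As a description, its score was higher by 0.84 at 1 h and by 0.77 at 18 h, and with depth as a covariate the 1 h difference was 0.62 and not called.

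Cd14 +17.7 kb (36707610 to 36709561) was among the 5005 best peaks of each list. It ranked 1241, 813 and 1857 in WT at 0 h, 1389 and 296 at 1 h, and 2061, 1985 and 1174 at 18 h. Among KO lists it ranked 1651, 2063 and 2458 at 0 h, 561, 391 and 273 at 1 h, and 5005, 1971 and 1712 at 18 h. The KO lists at 1 h stood above those at 0 h, and the WT lists overlapped. The rise at 1 h was 1.66 (0.77 to 2.55, limma adjusted p = 0.00763), 0.94 in WT and 2.38 in KO. The call was lost in the exact test (exact permutation p = 0.025), with linear ranks, with the coverage rule, where the difference was 1.77, and without WT 1 h replicate 3, where it was 1.10. The 18 h difference was −0.40 (−1.23 to 0.44). Cd14 −13.2 kb, in an intron of Tmco6, was not called.

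Ly96, which encodes the LPS-binding partner of TLR4, had an intronic element that rose at 1 h and fell at 18 h, while its promoter was not called. The Ly96 promoter (chr1:16687759-16689926, summit 14 bp from the start) ranked 11902, 9869 and 8862 in WT at 0 h, 6443 and 11880 at 1 h, and 4871, 8809 and 7017 at 18 h. In KO it ranked 10799, 12567 and 9566 at 0 h, 11045, 24118 and 11378 at 1 h, and 21100, 8356 and 8863 at 18 h. The groups overlapped, and the differences were −0.10 (−0.72 to 0.52) at 1 h and 0.25 (−0.33 to 0.84) at 18 h. Ly96 +14.6 kb (chr1:16702679-16703542, intron of Ly96) ranked 17080, 14355 and 14069 in WT at 0 h, 5998 and 8124 at 1 h, and 31324, 26752 and 23392 at 18 h. The KO lists ranked it at 14725, 18032 and 17358 at 0 h, 6584, 8125 and 5737 at 1 h, and 35659, none and 31615 at 18 h. The 3 times were separated in both genotypes, with the 1 h lists on top and the 18 h lists at the bottom. It rose by 1.21 at 1 h (0.90 to 1.51, limma adjusted p = 1.53e-05) and fell by 0.61 at 18 h (interval −0.90 to −0.32, limma adjusted p = 0.00375). At 18 h only WT replicate 3 kept it among the ranked peaks, so that this fall is bounded by the floor of the score. Its 5 ranked lists at 1 h would have admitted the element without those at 0 h. The 18 h call was lost with the coverage rule, at −0.54, and with the best 10000 peaks, where the difference was 0.00. Ly96 +8.1 kb was ranked in 3 lists and was called in neither comparison.

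Myd88, the adaptor shared by all TLRs but TLR3, had a promoter among the strongest peaks of each list. The Myd88 promoter element (chr9:119339210-119342280) also spans a start of Acaa1a, a peroxisomal thiolase, 29 bp from the summit, so the signal of both genes cannot be told apart. It ranked 611, 875 and 1300 in WT at 0 h, 126 and 239 at 1 h, and 478, 453 and 463 at 18 h. Its ranks in KO were 1073, 1013 and 922 at 0 h, 1079, 394 and 403 at 1 h, and 650, 465 and 536 at 18 h. The WT lists separated at both times, the KO lists separated at 18 h, and KO 1 h replicate 1 ranked it below every KO list at 0 h. The rise was 1.60 at 1 h (0.90 to 2.30, limma adjusted p = 0.00195), 2.35 in WT and 0.85 in KO, and 0.90 at 18 h (0.24 to 1.57, limma adjusted p = 0.0471), 0.93 in WT and 0.88 in KO. The exact test did not call the 1 h rise (exact permutation p = 0.02), nor did linear ranks. With depth as a covariate the 1 h difference was 1.05 and not called, and with the coverage rule it was −2.34. The 18 h call was also lost with another seed for ties, the best 10000 peaks, no common cap and at least 5 lists, each at 0.90, with linear ranks, and with the coverage rule, at 2.38. Omitting a single list removed it in 10 of 17 cases, those of WT 0 h replicates 2 and 3 and of every 18 h and KO 0 h list but KO 18 h replicate 1, with differences from 0.77 to 1.04. Myd88 +6.9 kb (chr9:119334061-119335215, intron of Slc22a14) ranked 16035, 13869 and 13661 in WT at 0 h and none and 24487 at 1 h. Among KO lists it ranked 13231, 14175 and 19549 at 0 h and 22454, 19170 and 22406 at 1 h. It fell by 0.61 at 1 h (interval −0.91 to −0.30, limma adjusted p = 0.00497), with 1 KO list at 1 h reaching into the range at 0 h, and the call was lost with depth as a covariate, at −0.53. Myd88 −10.8 kb was not called, with −0.73 (−1.43 to −0.02, limma adjusted p = 0.129) at 18 h.

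Of the 8 elements at the starts of neighbouring genes, 1 rose at 1 h and 2 fell at 18 h. Over all 10319 promoter sites, 530 were called higher at 1 h and 1316 lower at 18 h. The 3 elements are named because they were called, after their values were seen. The promoter of Alas1, the first enzyme of heme synthesis, lies 25.3 kb downstream of the Tlr9 start and rose by 0.83 at 1 h (0.41 to 1.25, limma adjusted p = 0.00551), a call lost with depth as a covariate, at 0.44. At 18 h the promoter of Oxsr1, a stress-responsive kinase, fell by 1.90 (interval −3.11 to −0.70, limma adjusted p = 0.0229), from ranks of 38 to 173 at 0 h to 179 to 1327. An internal start of Twf2, an actin-binding protein, fell by 0.36 (interval −0.57 to −0.14, limma adjusted p = 0.0162), a call lost in the exact test (exact permutation p = 0.02). The promoters of Fam114a1, Tmco6, Ik and Xylb and the main promoter of Twf2 were not called.

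No element was called for KO against WT, nor for a KO difference in the response at 1 h or at 18 h (limma, adjusted p under 0.05), beside 0.547%, 0.208% and 0.0703% of all sites. At an unadjusted limma p under 0.05 there were 5, 4 and 0 elements, beside 9.76%, 7.18% and 6.53% of all sites, and at an unadjusted exact permutation p under 0.05 there were 6, 1 and 1, beside 6.93%, 3.56% and 3.56%. These counts are descriptions, and none of the elements passed the adjustment. The largest of the differences was at the Myd88 promoter, −0.70 (−1.26 to −0.13, limma adjusted p = 0.379). At 0, 1 and 18 h it was −0.18, −1.68 and −0.23. The Ly96 promoter differed by −0.54 (−1.04 to −0.04, limma adjusted p = 0.454), with −0.11, −0.73 and −0.79 at the 3 times. Differences at the Cd14, Tlr2 and Tlr4 promoters were 0.09 (−0.32 to 0.50), 0.22 (−0.04 to 0.49) and −0.29 (−0.79 to 0.21). Over the 33 elements the differences ran from −0.70 to 0.36, and the outermost limits of their single intervals were −1.29 and 1.06.

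For the response at 1 h the smallest unadjusted limma p was 0.0155, at Cd14 +6.6 kb, which rose by 1.59 in WT and 0.69 in KO, a difference of −0.90 (−1.60 to −0.20, limma adjusted p = 0.518). At the Myd88 promoter the 1 h rise was 2.35 in WT and 0.85 in KO, a difference of −1.50 (−2.91 to −0.09, limma adjusted p = 0.664, exact permutation p = 0.185). The WT 1 h group has 2 lists, and without its replicate 3 Cd14 +6.6 kb was called both for KO against WT, at −0.50, and for the 1 h response, at −1.30. WT at 1 h is then a single list, assumed to vary like the other groups, and 1395 sites (4.08%) are called for KO against WT and 1431 (4.19%) for the 1 h response, where all lists give 187 and 71. For the response at 18 h the smallest unadjusted limma p was 0.095. No genotype difference in response passed at either time, and intervals for the 1 h response reached from −3.60 to 3.22.

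**Figure D4:**
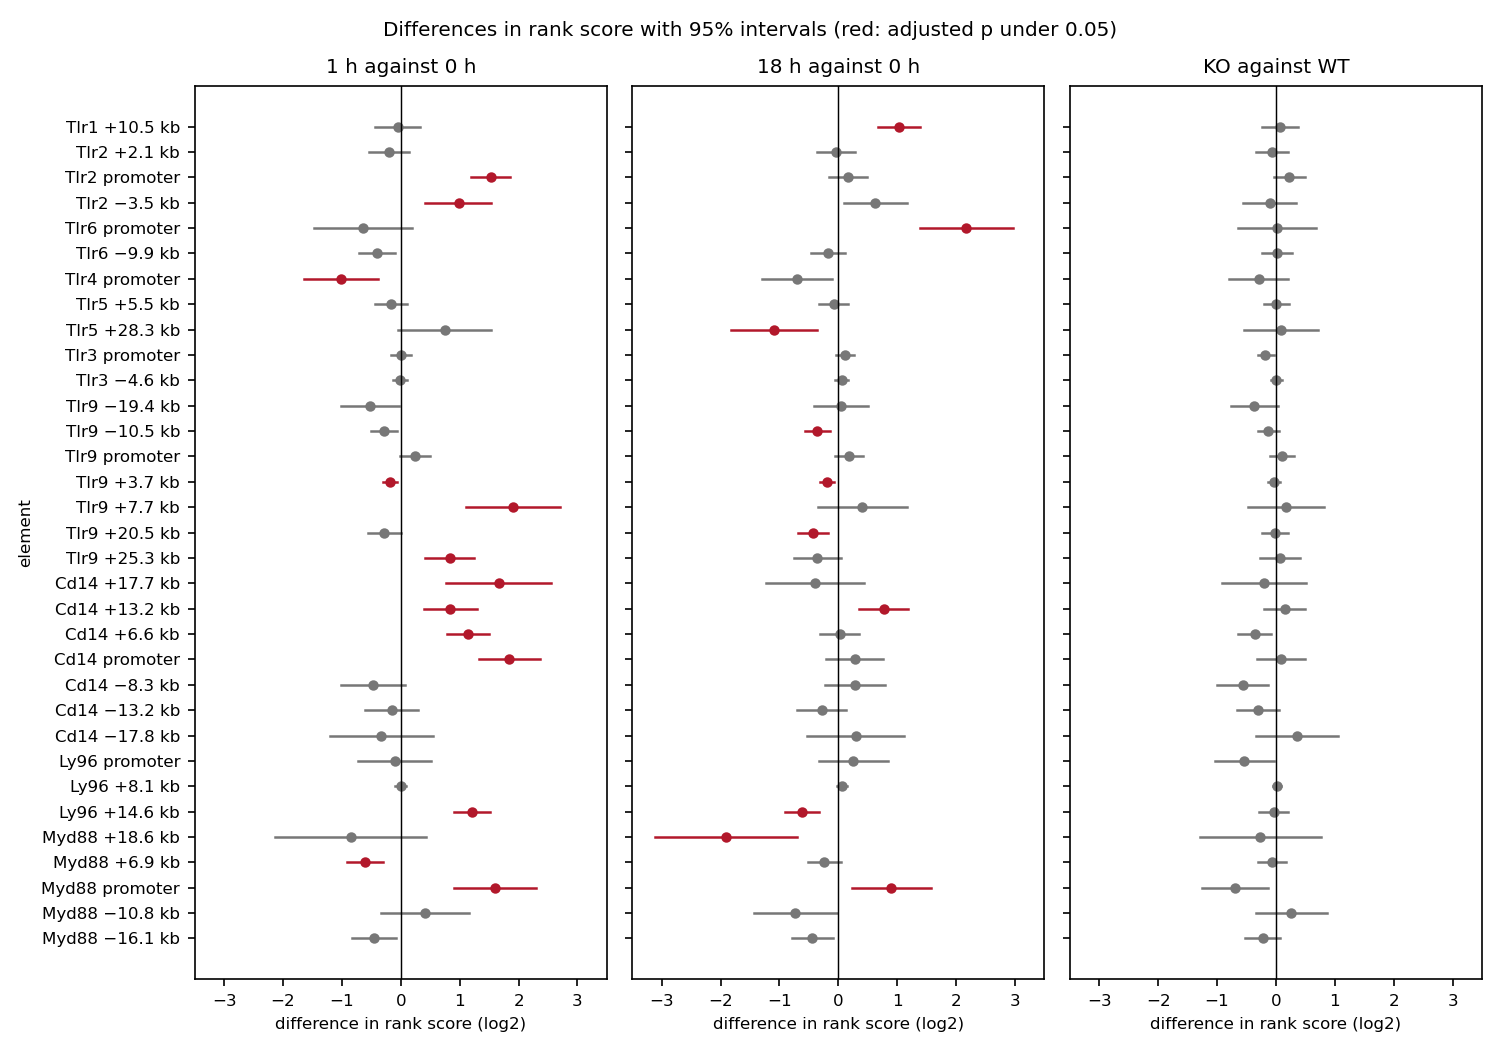
Difference in rank score (x axis, log2 units) of the 33 elements (rows) for 1 h and 18 h of LPS against 0 h and for KO against WT, as points with 95% intervals from limma. Red marks an adjusted p under 0.05. The Tlr2 and Cd14 promoters lie to the right at 1 h and near 0 at 18 h, and no element is red for KO against WT.

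Promoters of 31 other genes of the pathway were examined, of which 23 had a promoter site. None of 4 adaptors (Tirap, Ticam1, Ticam2 and Sarm1) was called in any of the 5 comparisons. Of 10 measured kinases and ubiquitin ligases, 1 was higher and 2 were lower at 1 h, namely Map3k7, which encodes the kinase TAK1, at 1.11 (limma adjusted p = 0.0481), Irak1 at −0.55 (0.0191) and Tab3 at −0.71 (0.0471). The exact test did not call Irak1 (exact permutation p = 0.02) or Tab3 (exact permutation p = 0.015). Among 4 measured negative regulators, the site at the promoter of Tnfaip3, which encodes the deubiquitinase A20, rose by 2.85 at 1 h (limma adjusted p = 8.3e-06). Its ranks went from 3283 to 4244 in WT at 0 h to 316 and 770 at 1 h, and from 3370 to 6529 in KO to 436 to 1114. The site is wide (chr10:19006074-19016064) and took the rank of its best peak. Whether that peak lay at the start was not tested. The promoter of Ly86, which encodes the RP105 partner MD-1, was ranked in 1 list at 0 h, none at 1 h and 5 at 18 h, and that of Tlr13, the only other receptor with a promoter site, in 4 lists, all at 18 h. Both entered the sites through their 18 h lists, so their differences of 0.44 and 0.16 at 18 h are descriptions. None of 4 measured trafficking and LPS transfer genes was called, and no promoter of the 23 was called for genotype. The 4 calls at 1 h and 2 at 18 h, the latter those of Ly86 and Tlr13, over these 23 promoters compare with 2356 and 1771 calls over all 10319 promoter sites.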

How the data were processed

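ATAC-seq peak lists of 17 BMDM samples were used. The authors trimmed reads with cutadapt 2.6, mapped them to mm10 with the snakeATAC pipeline, kept reads of mapping quality 20 or more without mitochondrial reads or duplicates, and called peaks per sample at a q-value of 0.001. The peak caller's version is not given in the sources used here, and the authors' DiffBind 3.0.15 comparison needs counts per site and was not refitted. The deposited columns are a fold (ratio of pileup to background), −log10 p-values and q-values, and a score of 10 times the −log10 q-value. All depend on depth, so the −log10 p-value only ranked peaks inside a list. The whole reads and background level behind each deposited fold were recovered in 100% of entries of every list, and background per kb served as depth, a relative index.

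Entries sharing an interval were collapsed to the best summit, the best 24389 peaks of each list (the number in the shortest) were ranked with ties broken at random (seed 1), and peaks overlapping by at least 1 bp were merged. Rank scores were fitted with limma 3.58.1 (R 4.3.3, trend, 6 group means, 11 residual degrees of freedom) over all 34158 sites with Benjamini-Hochberg adjustment. LPS differences are means over genotypes and the genotype difference is the mean over times. Two-sided exact permutation tests regrouped lists within genotype or within time, and the smallest p they can give is 0.005 for LPS and 0.00025 for genotype. The fit was tested on simulated data with known shifts. Promoters had a summit within 1 kb of a protein-coding start in GENCODE vM21, and sequences came from GRCm38. Named elements are all member promoters and each called distal element. Members and lists were chosen with earlier results of these data known. Alternatives changed the number of ranked peaks, rank scale, tie seed, overlap, q-value floor, list weights, depth, test, site filter, replicate block, window and single lists.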

Additional observations from a re-analysis of the deposited data

How the results depend on the processing

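With the best 10000 peaks per list, 2 elements were called at 18 h (9 at 1 h), since a shorter ranking holds fewer peaks. When a peak had to cover 50% of an element, 6 were called at 1 h and 2 at 18 h, with 2 for KO against WT (Tlr1 +10.5 kb and Tlr9 +3.7 kb, both lower in KO), 1 for the 1 h response (Tlr9 +3.7 kb) and 2 for the 18 h response (both). That rule reversed 4 called differences, the Tlr6 promoter at 18 h (−0.18) and, at 1 h, the Cd14 promoter (−0.37), the Myd88 promoter (−2.34) and Tlr9 +7.7 kb (−0.28), and the cause was not tested. Depth as a covariate left 7 calls at 1 h. Leaving out single lists gave 11 to 18 calls at 1 h, 6 to 12 at 18 h (6 without WT 0 h replicate 2), 0 to 1 for KO against WT, 0 to 1 for the 1 h response (both 1 without WT 1 h replicate 3) and 0 for the 18 h response. Windows of 10 and 50 kb held 23 and 60 elements, with 10 and 25 called at 1 h and 7 and 17 at 18 h. Of 1054 checks of single named elements, 952 kept direction and side of the threshold, 68 lost a call, 7 gained one and 27 changed sign, of which 23 concern differences that were not called. For KO against WT these were the Tlr6 promoter (−0.07 with linear ranks, whose unit is 1000 ranks and not the log2 score, −1.73 with coverage, −0.15 to 0.31 without single lists), the Tlr4 promoter (0.01 with depth) and the Cd14 promoter (−0.04 with linear ranks, −0.28 with coverage, −0.04 to 0.21 without single lists). For LPS they were the Cd14 promoter at 18 h (−0.30 with coverage) and, at 1 h, the Tlr3 promoter (−0.18 with no common cap, −0.09 with coverage, −0.09 to 0.10 without single lists) and the Ly96 promoter (0.12 with 10000 peaks, 0.03 with list weights, −0.32 to 0.12 without single lists).

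The fit with a replicate block, in which WT 1 h replicate 1-2 drops out, called 9 elements at 1 h, all of them among the 13, and 8 at 18 h, all among the 10, and 0 for genotype. The calls not made under the block were Tlr2 −3.5 kb (0.87), the Tlr4 promoter (−0.95), Tlr9 +3.7 kb (−0.21) and the Alas1 promoter (0.56) at 1 h, and the Myd88 (0.90) and Oxsr1 (−1.90) promoters at 18 h. In their labels samples share only a number. Of 35 same-numbered pairs, 4 had a correlation of deviations over 0.1 (−0.225 to 0.206). Their median was 0.00545, beside 5.43e-06 over 85 other pairs. Such correlations between few lists per group cannot exclude a pairing.

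Over all sites, 1 h calls were 9571, and 3266 with 10000 peaks and 5803 with depth. Calls at 18 h were 8063, and 2083 with 10000 peaks and 4124 with the coverage rule. KO calls were 187, and 109, 90 and 952 with 10000 peaks, depth and coverage. Calls for the 1 h response were 71, and 0 with no common cap, 1 with at least 5 lists, 25 with depth, 176 with the block and 274 with coverage. Those for the 18 h response were 24, and 0 with no common cap or at least 5 lists, 6 with the block, 10 with depth, 47 with linear ranks, 105 with list weights and 646 with coverage. The exact test left 7734, 5072, 0, 0 and 0. Without single lists KO calls ran from 108 to 1395 and those for the responses from 25 to 1431 and from 4 to 236. Scores near 0 cannot show a fall.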
